A study of Ictidomys tridecemlineatus with 15 samples.

Results

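The 50 gene rows described here are the rows of the deposited count matrix that stood highest in rods over every other annotated cell type, out of 34181 rows. They were chosen from the level in each type, in CPM, a type's count of a row scaled to a total of 1000000, with the cells of a type pooled over libraries. Counts are of unique molecular identifiers (UMIs), each of which stands for 1 captured mRNA molecule. A row's score was the log2 ratio of its rod level to its highest level in any of the other 11 types, with 10 CPM added to both, and the 50 highest scores among the 3322 rows at 50 CPM or more in rods were kept. The level in rods against the other types therefore chose the rows, and is given below as a description with no test. The deposited gene names could not be paired with the matrix rows, so rows are given by their number, counted from 1, the function of each is not given, and the rods could not be checked against named markers.

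The libraries were made from whole retinas of a diurnal rodent with a cone-rich retina, the 13-lined ground squirrel (13LGS), and the animals were captive and untreated. The study asked how the cell types of a cone-rich retina arise over development, with birth at embryonic day 27. There were 46474 cells in 14 libraries: 1 at embryonic day 18 (E18), 2 each at E21, E24 and E26, 1 at postnatal day 4 (P4), 2 each at P8 and P12, and 1 each at P17 and P21. Where a time point had a pair of libraries, they are marked a and b. Retinas had been methanol-fixed or flash-frozen, and which library was made which way, and how many animals each held, is not given in the sources used here, so that the tests below measure the spread between libraries only.

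Rods are the photoreceptors of dim light, and carry a light-sensing outer segment filled with rhodopsin and the proteins of the phototransduction cascade. They and the cones, which serve daylight and colour vision, arise from dividing progenitors and pass through a postmitotic precursor stage before they mature. Young photoreceptors switch on their specialised genes gradually, and the outer segment forms after birth in rodents.

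Only 150 cells were annotated as rods: 16 and 14 in P12a and P12b, 31 in P17 and 89 in P21. They held 324308 UMIs in all, from 37967 in P12a to 163975 in P21, with a median of 1963.5 per rod. Cones numbered 2987, from P4 to P21, and photoreceptor precursors 2249, from E21 to P12. Embryonic libraries were deeper, the median cell holding 5230.5 to 11868 UMIs, and 1548 to 4175 in postnatal ones. Of 46210 cell barcodes, 263 occurred in more than 1 library, and 1 of these belonged to a rod.

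The scores ran from 7.58 for row 12930 down to 1.44, and the levels behind them separated a small leading group from a long tail. Row 12930 stood at 2621 CPM in rods (850 UMIs) and at no more than 3.75 CPM in any other type. The next 9 in score were rows 13577, 8920, 27062, 30768, 27284, 23757, 22749, 1870 and 9287, which ran from 247 to 15242 CPM in rods. The 14 rows with a score above 4, called the top rows below, took 10181 of the 14038 rod UMIs of the 50 rows. Row 27062 was the most abundant, at 15242 CPM (95% exact Poisson interval 14820 to 15673, counting error only), and alone made up 35.2% of the UMIs of the 50 rows in rods. The tail was much lower: 16 rows scored under 2, 13 rested on fewer than 40 rod UMIs, and row 22746, the last inside the list, stood at 61.7 CPM in rods and 16.5 CPM in late progenitors. Rows 22750 and 15360, just inside, scored 1.46 and 1.44, and rows 10513 and 31157, just outside, scored 1.41 and 1.38. Rows 13576 and 13577, 22749 and 22750, and 27062 and 27063 are neighbours in the matrix, and whether neighbouring rows share reads is not known.

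**Figure D1:**
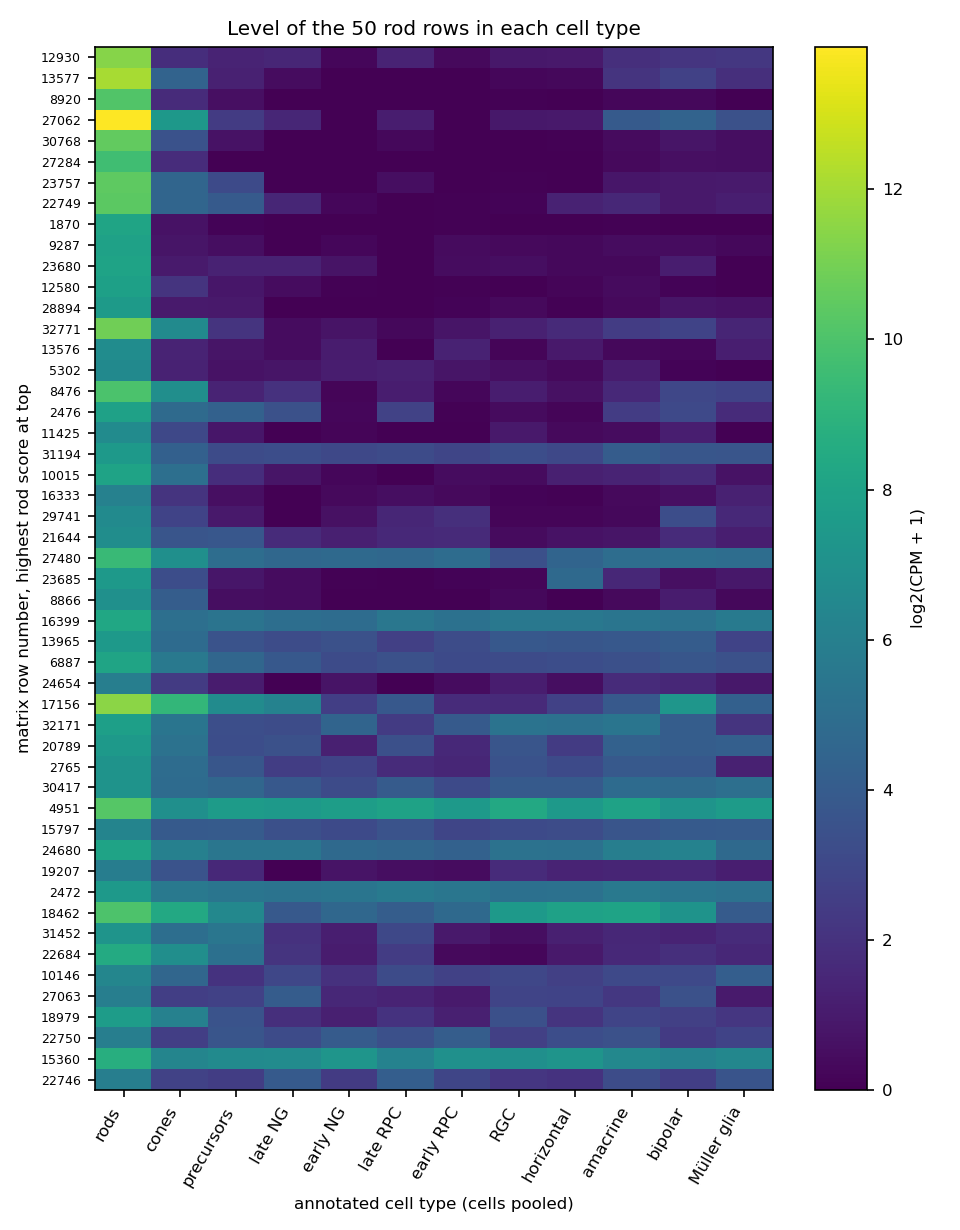
Level of each of the 50 rows (vertical axis, matrix row number, highest score at the top) in the 12 annotated types (horizontal axis, cells pooled over libraries), as log2(CPM + 1). Rods are bright throughout because the rows were chosen there, and cones are the next brightest column. Some rows near the bottom are found at low levels in many types, while others, such as row 18979, are brightest in cones outside rods.

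Cones were the type next to rods for most rows. The highest level outside rods was in cones for 34 of the 50 rows, in precursors for 4, in Müller glia for 3, and in bipolar cells and late progenitors for 2 each. Together the 50 rows made up 4.33% of all UMIs in rods, 0.249% in cones and 0.0947% in precursors, against 0.0556% to 0.104% in the other 9 types. Outside rods the rows differed in kind: 14 stayed under 10 CPM in every other type, while 6 reached 10 CPM or more in all 12 types. The highest in cones were rows 17156, 18462 and 27062, at 579, 339 and 172 CPM. In precursors the highest were rows 4951, 17156 and 15360, at 200.3, 104 and 98.7 CPM, and row 27284 had no UMI in 9898755, which allows a level of up to 0.303 CPM.

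In rods, the rows did not share 1 time course. Row 27062 stood at 1659 CPM in P12a, 2096 in P12b, 6777 in P17 and 25943 in P21. Row 13577 went from 869 and 1151 CPM in the P12 libraries to 1887 in P17 and 7050 in P21. Row 12930 stood at 132 and 69.1 CPM in the P12 libraries, 177 in P17 and 5050 in P21. All 3 had their highest level in P21, and row 12930 was far higher there than in the other 3 libraries, with 8 UMIs in the pooled P12 rods and 828 in P21 rods.

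Rows 22749 and 23757 were already high in the first rods. Row 22749 stood at 685, 1105, 1165 and 1628 CPM in P12a, P12b, P17 and P21. Row 23757 stood at 1133, 875, 773 and 1927 CPM in the same order. From pooled P12 to P21 rods these were ratios of 1.79 for row 22749 and 1.94 for row 23757, beside 51.4 for row 12930 and 13.7 for row 27062.

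Another set ran the other way. Row 30417 stood at 711 and 391 CPM in the P12 libraries and 25.3 CPM in P17, and had no UMI in the 163975 of P21. Row 12580, a top row, stood at 606, 760, 228 and 18.3 CPM from P12a to P21, and row 21644 at 211, 438, 101 and 6.10. Row 2476 stood at 500.4, 415, 317 and 104 CPM. Each of these 4 rows was lower in P17 and P21 than in both P12 libraries, and row 30417 was at least 29.5-fold lower in P21 than in the pooled P12 rods, with 3 UMIs as the limit for a count of 0. Rows 12580, 21644 and 2476 were singled out after their values were seen. Row 30417 was not highest in rods after P12, and its level also differed with age in other types. From P12a to P21 it stood at 47.0, 34.5, 41.1 and 4.52 CPM in cones. In bipolar cells it stood at 10.4, 14.8, 64.2 and 7.84 CPM, and in Müller glia at 7.71, 34.1, 51.8 and 13.0. The lower level in P21 than in P17 was thus not particular to rods.

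On the scale of CPM + 10, and with the P12 libraries pooled, 32 of the 50 rows were at least 2-fold higher in P21 rods, 5 at least 2-fold lower and 13 in between. Of the 4139 rows at 50 CPM or more in P12 or P21 rods, 15.2% were at least 2-fold higher and 19.2% at least 2-fold lower. Most rods came from P21, so the choice of rows favours those high at P21, and this count is a description. The rows summed to 14565 and 14692 CPM in the P12 libraries, 21193 in P17 and 68145 in P21. When P21 was left out of the choice, 34 of the 50 rows were chosen again, 12 of the 14 top rows among them.

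The age contrast within rods, P17 and P21 against P12, was fitted over all rows with edgeR's quasi-likelihood test, in which 0.0907% of 1103 rows passed a Benjamini-Hochberg adjusted p of 0.05. The filter on low counts kept 25 of the 50 rows. The 1 row called in the whole table was row 30417, with a log2 difference of -5.79 (standard error, SE, 0.81, adjusted p = 0.0223). No member was called higher. At an unadjusted p under 0.05 were 12 of the 25 members, beside 7.71% of all rows tested, and DESeq2 called 2, beside 0.272%. The difference of row 27062 was 3.09 (SE 0.57, adjusted p = 0.125) and that of row 12930 was 4.70 (SE 1.30, adjusted p = 0.374). The members' median difference was 0.98 on the log2 scale, against -0.02 over all rows tested. The rows were chosen on pooled rods, of which P21 gave 89 of 150, so the choice favours rows high in P21, and these counts and this median are no independent evidence of a rise. Without P17, 18 members were among 56 rows called, with P21 the only later library, and without P12a 0 were called, with P12b the only earlier one. In both the lone library is assumed to vary like those of the other age. Without the cells of high UMI count, 0 were called.

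**Figure D2:**
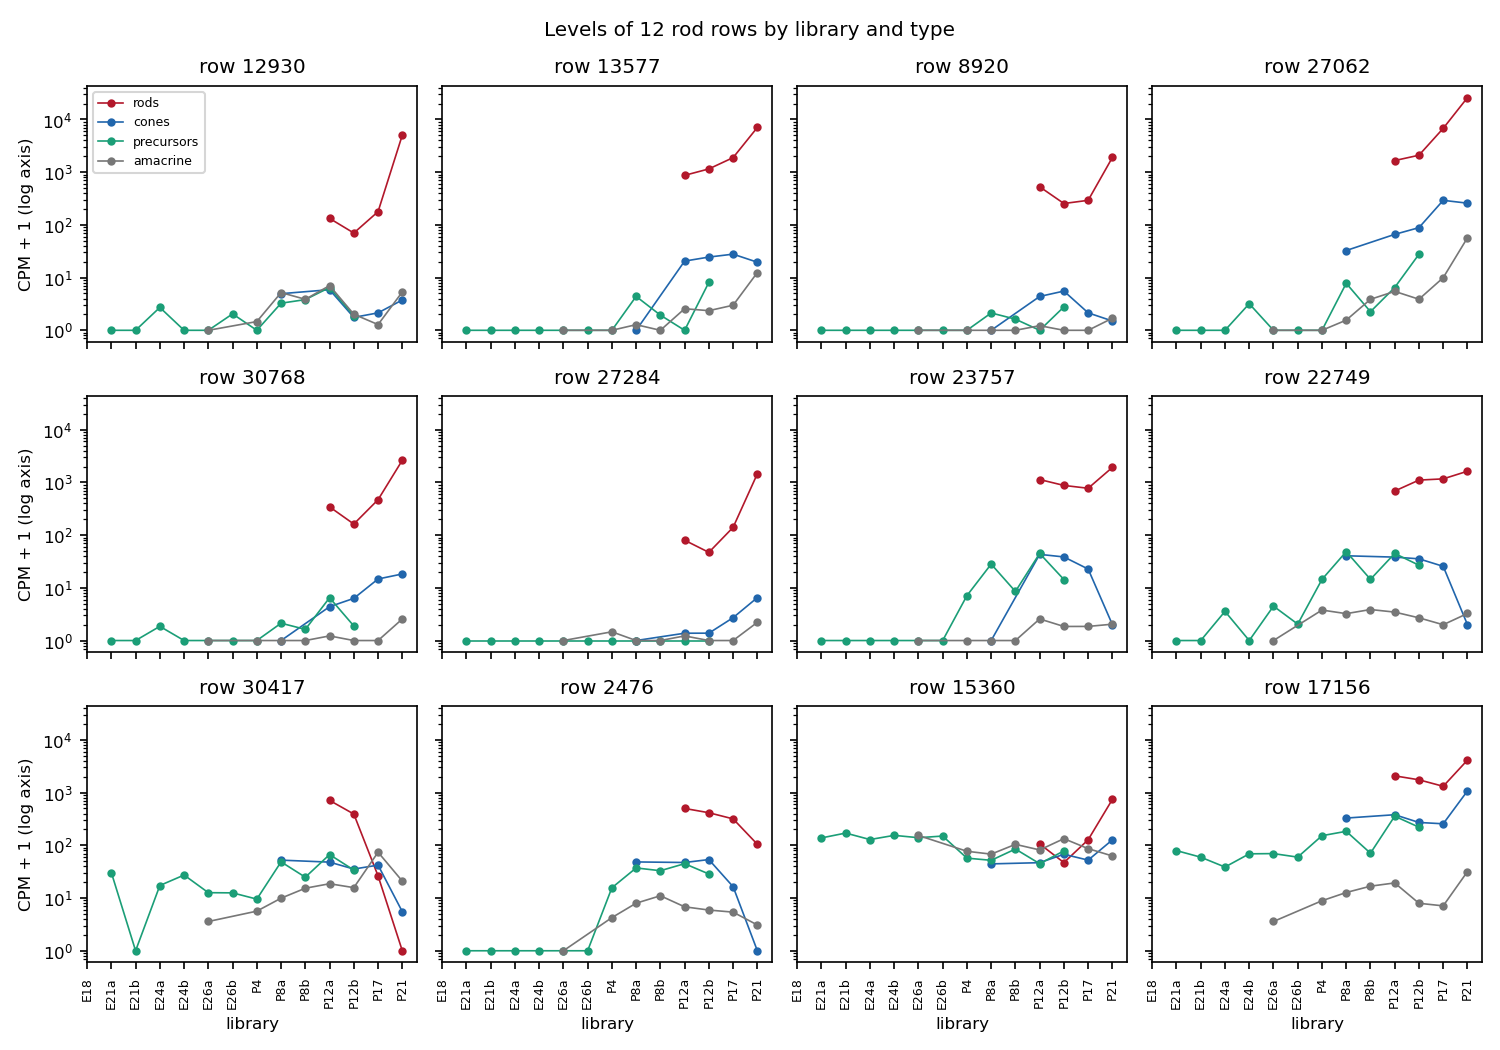
Level of 12 rows (CPM + 1, log axis, so that 1 is a level of 0) in each library with at least 10 cells of the type, for rods, cones, precursors and amacrine cells; lines join libraries in order of age and carry no fit. Row 12930 is far higher in P21 rods than anywhere else, rows 22749 and 23757 are high in rods of every age and near 1 CPM in P21 cones, and row 30417 is high in P12 rods and without a UMI in P21 rods.

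In cones the levels were far lower, and the values of single rows differed with age in both directions. Row 27062 stood at 31.6 CPM in P8a cones, 65.1 and 87.6 in the P12 libraries, 291 in P17 and 257 in P21. Row 8476 stood at 11.9, 13.2, 23.9, 24.6 and 292 CPM in the same order, and row 32771 at 31.6, 24.1, 40.6, 21.7 and 224. Rows 8476 and 32771 were thus high in P21 alone, while row 27062 was already high in P17.

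Rows 23757 and 22749, high in rods of every age, were near 1 CPM in the cones of P21. Row 23757 had no UMI in P8a cones, then stood at 42.1 and 37.5 CPM in the P12 libraries, 21.7 in P17 and 1.00 in P21. Row 22749 stood at 39.5, 37.2, 34.5, 24.6 and 1.00 CPM from P8a to P21. Row 2476 stood at 47.4, 46.3, 52.7 and 15.4 CPM up to P17 and had no UMI in the 3983782 of P21 cones, at least 65.7-fold lower than in pooled P12 cones. In P21 rods the same 3 rows stood at 1927, 1628 and 104 CPM. In the amacrine cells of P21, rows 23757 and 22749 stood at 1.04 and 2.26 CPM, so that the cones of that library were not above amacrine cells for either row.

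By the same count as in rods, 12 of the 50 rows were at least 2-fold higher in P21 cones than in P12 cones, 9 at least 2-fold lower and 29 in between, against 9.68% higher and 10.9% lower of the 3883 rows at 50 CPM or more in P12 or P21 cones. All 12 of the rows higher in cones were also higher in rods, where 32 rows were, and 3 of the 9 lower in cones were among the 5 lower in rods. Rods and cones of an age came from the same libraries, so the 2 counts are not independent.

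**Figure D3:**
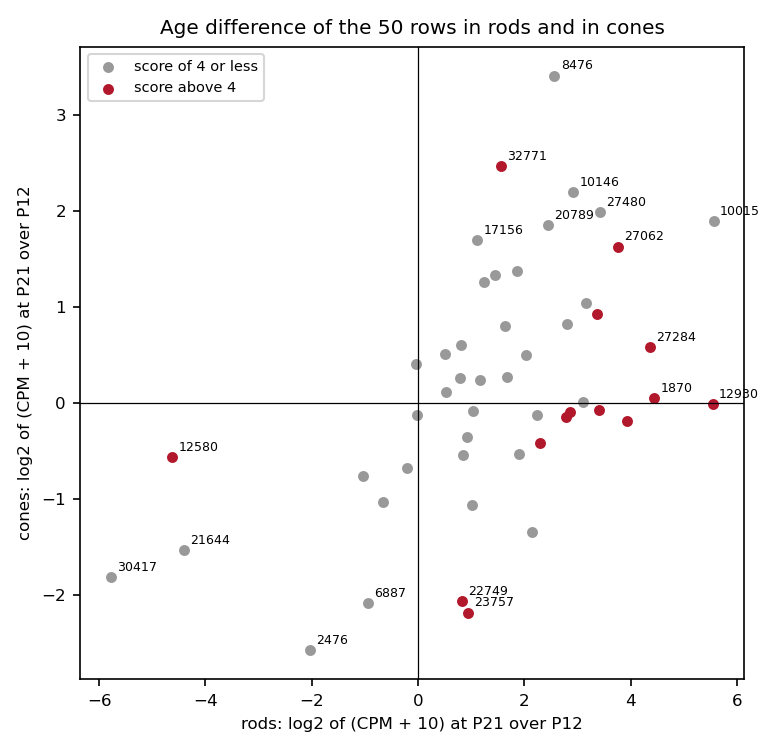
Difference between P21 and pooled P12 for each of the 50 rows in rods (horizontal axis) and in cones (vertical axis), as log2 of the ratio of CPM + 10; red points are the 14 top rows. Rows 8476, 32771 and 27062 lie above 0 in both, rows 30417, 21644 and 2476 below 0 in both, and rows 22749 and 23757 between 0 and 1 in rods and below -2 in cones.

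The rule did not use the age contrast within cones, but the contrast is not independent of the choice. The pooled cone level, with 1537 of 2987 cones from P21, was the highest other level for 34 rows. The choice also favours rows high in P21 rods, which came from the same library as P21 cones. In cones of P17 and P21 against P8 and P12, 42 of the 50 rows were tested and none was called by edgeR, beside 0.102% of 12742 rows (0.0785% higher and 0.0235% lower). At an unadjusted p under 0.05 were 19 of the 42 members, beside 14.2% of all rows tested, and DESeq2 called 8, beside 2.08%. The members' median difference was 0.70 against -0.01 over all rows tested. These counts and this median are no independent evidence of a change with age. Row 27062 came nearest, with a log2 difference of 2.24 (SE 0.36, adjusted p = 0.0531). The differences of rows 22749, 23757 and 2476 were -1.52 (SE 0.83), -1.48 (SE 0.98) and -2.75 (SE 0.99), with adjusted p of 0.442, 0.537 and 0.245. Without P17, 24 members were among 1564 rows called, and without P21 1 among 50. Either leaves 1 later library, which is assumed to vary like the earlier ones, so the 24 calls set P21 alone against 3 libraries. With age in days as a continuous covariate, 12 members were among 600 rows called.

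In precursors, 1 row had UMIs in every postnatal library and in no embryonic one. Row 2476 had no UMI in any of the 6 embryonic libraries with precursors, in 3705679 UMIs, and stood at 14.7 CPM in P4, 36.3 in P8a, 32.0 in P8b, 43.9 in P12a and 27.6 in P12b. That is at least 36.9-fold higher over the postnatal libraries together, with 3 UMIs as the limit for a count of 0 over the group. Single precursors rarely showed it, with a UMI in 6.22% of the 2249. The row was not particular to precursors among postnatal types. In bipolar cells it stood at 53.7 CPM in P8a and 29.0 in P8b, then at 9.07 in P12a and 5.96 in P12b. In Müller glia it stood at 21.1 CPM in P8a, and at 2.89 in P12a and 1.26 in P12b. Row 22749 stood at 0 to 3.49 CPM in the embryonic libraries and at 13.4, 47.6, 13.5, 43.9 and 25.8 in the postnatal ones. Row 15360 ran the other way, from 128 to 170 CPM in the embryonic and from 43.9 to 84.1 in the postnatal libraries. The groups did not overlap for any of the 3, which were named for the size of their called differences. The share of all tested rows without overlap was not computed, here or in the comparisons below.

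Of the 50 rows, 17 were tested between postnatal and embryonic precursors, 7 were called higher and 1 lower, beside 24.7% of 8571 rows (13.4% higher and 11.3% lower). The median difference of the members was 0.61 against 0.02 over all rows. Row 2476 had the smallest adjusted p of the members (1.99e-05), row 22749 rose by a log2 difference of 3.65 (SE 0.57, adjusted p = 0.000213), and row 15360 fell by 1.20 (SE 0.19, adjusted p = 0.000255). Rows 18462, 6887, 17156, 16399 and 4951 also rose, by 0.61 to 2.64. Row 18462 stood at 5.86 to 31.5 CPM before birth and 62.1 to 254 after. The median UMI count of a precursor was 2837.5 to 7546 in the embryonic and 1276 to 7056 in the postnatal libraries. With the sums of all libraries thinned to the smallest, 1 member was called, and the share of all rows in that setting is not given here.

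The same contrast in neurogenic progenitors, the dividing cells that give rise to precursors, called 3 rows. The class pools 2 annotated clusters, and 1762 of the 1809 embryonic cells were of the early one and 1010 of the 1066 postnatal cells of the late one, so age and cluster cannot be told apart. Of 15 tested, 2 were called higher and 1 lower, beside 34.5% of 9349 rows (16.5% higher and 18.0% lower), and the median was -0.01 against -0.05 over all rows. Row 17156 stood at 3.66 ± 3.65 CPM (SD, n = 7 libraries) before birth and 77.5 ± 40.7 (n = 6) after, with no overlap between the groups (log2 difference 4.17, SE 0.47, adjusted p = 3.48e-06). Row 24680 rose by 0.74 (SE 0.19, adjusted p = 0.00673), and row 15360 fell by 0.65 (SE 0.21, adjusted p = 0.0225). Row 2476 was among the rows not tested there.

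Between precursors and the progenitors of the same 5 postnatal libraries, 12 rows were tested, 5 were called higher in precursors and 1 lower, beside 12.8% of 7465 rows (7.39% higher and 5.43% lower). Row 18462 stood at 159 ± 70.2 CPM (SD, n = 5) in precursors and 13.7 ± 7.95 in progenitors (log2 difference 3.81, SE 0.24, adjusted p = 7.16e-10). Row 22684 stood at 45.3 ± 15.3 and 5.40 ± 5.02 CPM (log2 difference 3.78, SE 0.45, adjusted p = 4.08e-06). The values of these rows did not overlap between the classes. Row 15360 was lower in precursors by a log2 difference of -0.63 (SE 0.20, adjusted p = 0.0437), with overlapping values. Without P8a, 3 members were called, and 2 without the library as a block, and the share of all rows in those settings is not given here. The types were annotated by the authors from clusters of these same counts, so no difference between types is independent of the annotation, here or below.

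Cones were compared with precursors of the 3 libraries that held at least 10 of both, P8a, P12a and P12b. Of 27 rows tested, 7 were called higher in cones and none lower, beside 6.79% of 9272 rows (3.11% higher and 3.69% lower). Row 27062 stood at 31.6, 65.1 and 87.6 CPM in cones of those libraries and at 6.80, 5.49 and 26.7 in precursors (log2 difference 1.84, SE 0.24, adjusted p = 0.000103). Row 8476 stood at 11.9, 13.2 and 23.9 CPM in cones and at 3.40, 0 and 6.24 in precursors (log2 difference 1.95, SE 0.44, adjusted p = 0.0111). Rows 32771, 6887, 22684, 18979 and 18462 were higher in cones by 0.67 to 1.81. Row 22749 stood at 34.5 to 39.5 CPM in cones and 25.8 to 47.6 in precursors (log2 difference 0.06, SE 0.25, adjusted p = 0.951). Row 2476 stood at 46.3 to 52.7 CPM in cones and 27.6 to 43.9 in precursors, with no overlap and no call (log2 difference 0.60, SE 0.23, adjusted p = 0.154). The 7 calls needed the library as a block, since none was made without it, and DESeq2 made 2, beside 1.92% of all rows tested.

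Amacrine cells, which are inhibitory interneurons and not photoreceptors, gave the level of the rows in another type of the same libraries. In cones against amacrine cells from P12 to P21, 38 rows were tested, and 21 were called higher in cones and 1 lower, beside 45.6% of 13681 rows, with 22.5% higher and 23.1% lower. Row 22684 stood at 122 ± 42.3 CPM (SD, n = 4) in cones and 2.01 ± 0.66 in amacrine cells (log2 difference 6.06, SE 0.26, adjusted p = 1.71e-05). Row 8866 stood at 14.3 ± 11.1 and 0.316 ± 0.368 CPM (log2 difference 5.57, SE 0.46, adjusted p = 0.000165). Row 17156, the most abundant of the 50 in cones, stood at 255 to 1076 CPM in cones and 6.11 to 30.7 in amacrine cells. Row 4951 was lower in cones, at 53.5 to 176 CPM against 212 to 306 (log2 difference -0.95, SE 0.28, adjusted p = 0.0281).

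Postnatal precursors were set against amacrine cells in the same way. Of 22 tested against amacrine cells of the same 5 libraries, 9 were called higher in precursors and 2 lower, beside 31.7% of 10518 rows (15.7% higher and 16.0% lower). Row 22684 stood at 45.3 ± 15.3 CPM (SD, n = 5) against 1.70 ± 0.997 (log2 difference 4.65, SE 0.27, adjusted p = 4.32e-07), and row 17156 at 196 ± 105 against 12.1 ± 4.93 (log2 difference 4.18, SE 0.28, adjusted p = 7.96e-07). Rows 32171 and 15360 were lower in precursors, by log2 differences of -1.74 (SE 0.32, adjusted p = 0.00137) and -0.48 (SE 0.14, adjusted p = 0.0193).

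The most abundant rod rows also appeared at low levels in types other than photoreceptors, most of all in P21. Row 27062 stood at 0 to 2.87 CPM in amacrine cells up to P8b, at 4.48 and 2.88 in the P12 libraries, 8.95 in P17 and 55.9 in P21. In P21 it stood at 110 CPM in bipolar cells, 73.4 in Müller glia, 20.5 in retinal ganglion cells and 257 in cones, beside 25943 in rods. The 50 rows summed to 1465 CPM in P21 amacrine cells against 790 to 1139 in those of P4 to P17, and to 1441 CPM in P21 bipolar cells against 728 to 961 in those of P8 to P17. Rods were most numerous in P21 and their summed level was highest there, and the part of free rod RNA in these values was not tested.

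Neither contrast of these interneurons gave a call. In amacrine cells from P12 to P21 against P4 and P8, 29 rows were tested and 0 were called by edgeR, beside 0.456% of 14037 rows (0.107% higher and 0.349% lower). Of the members 6 had an unadjusted p under 0.05, beside 15.6% of all rows tested, and DESeq2 called 1, beside 3.46%. In bipolar cells from P12 to P21 against P8, 31 rows were tested and 0 were called, beside 0% of 13497 rows. There 6 had an unadjusted p under 0.05, beside 6.55% of all rows tested, and DESeq2 called 1, beside 0.215%. The members' median difference was 0.29 against 0.04 over all rows in amacrine cells, and 0.44 against 0.08 in bipolar cells. Rods were present in all the later libraries and in none of the earlier ones, so age and the presence of rods cannot be told apart.

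**Figure D4:**
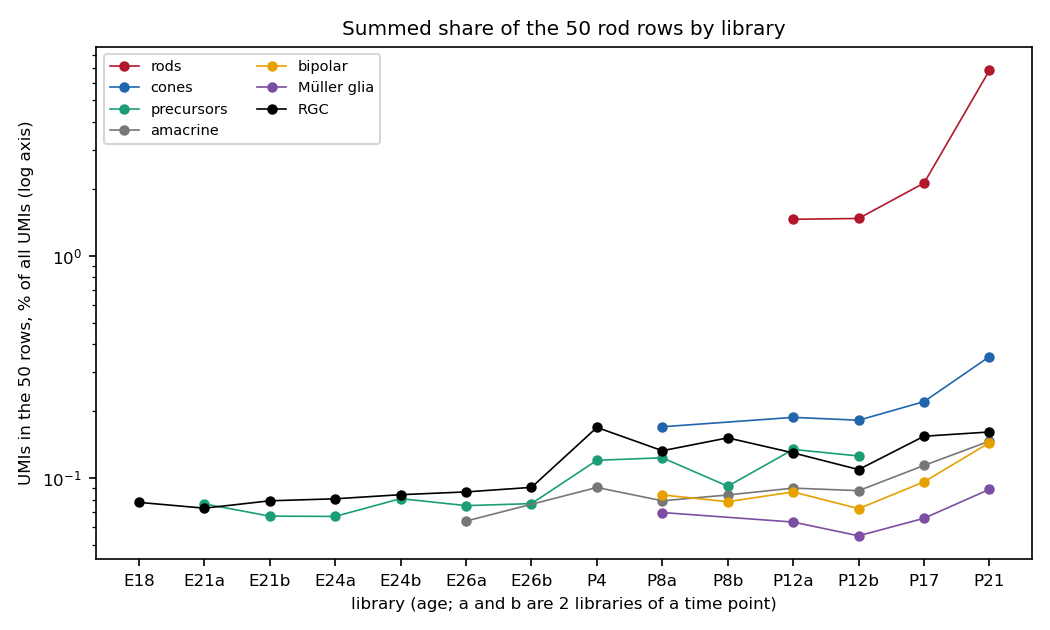
UMIs of the 50 rows as a percentage of all UMIs (log axis) in each library with at least 10 cells of the type, in order of age. Rods lie at 1.46% to 6.81%, cones at 0.170% to 0.351%, and the other 5 types plotted under 0.2% in every library. Amacrine, bipolar, Müller glia, cone and rod values are highest in P21.

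Single cells showed how the rows were spread over rods. Row 17156 had a UMI in 147 of 150 rods (98.0%, 95% Wilson interval 94.3 to 99.3), row 13577 in 142 (94.7%) and row 27062 in 138 (92.0%). Row 12930 had a UMI in 4 of 16 and 3 of 14 rods in the P12 libraries, 3 of 31 in P17 and 80 of 89 in P21. For row 30417 the counts were 13 of 16, 9 of 14, 2 of 31 and 0 of 89, the last of which allows a share of up to 3.37%. No row of the top 14 took more than 14.3% of its rod UMIs from 1 cell.

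Beside these shares stand those of other types in P21. Row 27062 had a UMI in 22.8% of 1537 cones and 17.3% of 1600 amacrine cells, at medians of 2362 and 2457.5 UMIs per cell. For row 12930 the shares were 0.716% and 1.31%, and for row 23757 0.260% and 0.375%, so that cones were not above amacrine cells. Rows 32771 and 8476 differed, with a UMI in 41.3% and 48.5% of cones and 2.94% and 1.62% of amacrine cells. Some of the 50 rows were therefore found in P21 cones well above amacrine cells, and others were not.

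To compare cells at 1 depth, each cell was thinned to 1000 UMIs, which left out 10 rods, 47 cones, 36 precursors and 124 amacrine cells. A rod then held a median of 16 of the 50 rows (quartiles 10 and 20), against 2 in cones (1 and 3), 1 in precursors, 1 in amacrine cells and 1 in bipolar cells. The unthinned medians were 22, 5, 2, 2 and 2. At least 2 of the 14 top rows were present in 135 of 140 rods (96.4%), 96 of 2940 cones (3.27%), 5 of 2213 precursors (0.226%), 11 of 9717 amacrine cells (0.113%) and 14 of 6160 bipolar cells (0.227%). At least 3 were present in 126 rods and in 17 other cells, of which 15 were cones, and no other cell held more than 4.

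**Figure D5:**
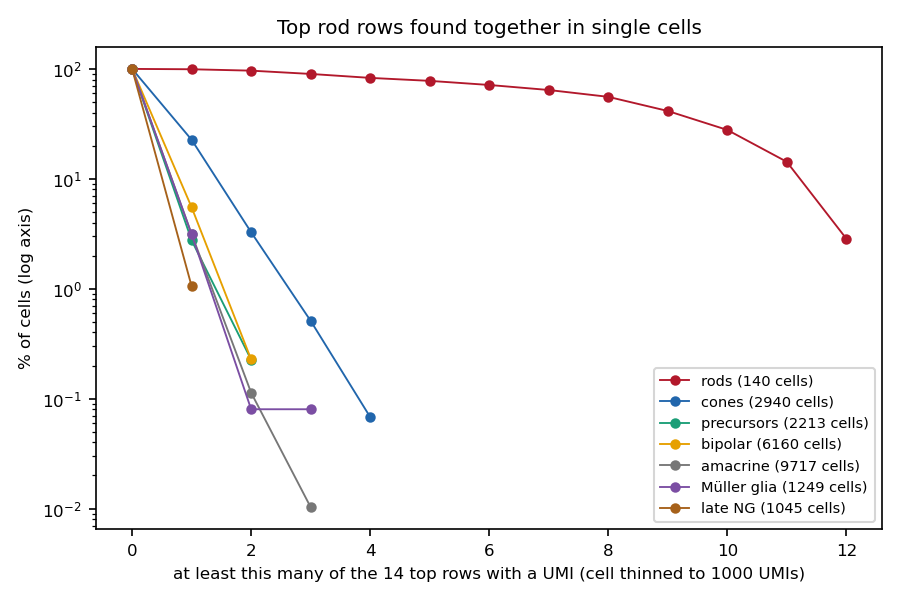
Percentage of cells (log axis) with a UMI of at least the given number of the 14 top rows, after thinning each cell to 1000 UMIs, by type with the number of cells kept. Rods hold up to 12 of the 14 rows at once, and no cone holds more than 4.

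Rods of the different libraries also differed cell by cell, which is given as a description. The 50 rows made up 0.725% to 3.11% of a cell's UMIs in P12a rods, with a median of 1.29%, and 0.820% to 3.00% in P12b, with a median of 1.42%. In P17 the range was 0.581% to 3.97% and the median 2.33%. In P21 it was 2.34% to 9.65% with a median of 6.86%, which overlaps the upper part of the ranges at P12 and P17. At 1000 UMIs the rods of P12a and P12b each held a median of 8.5 of the 50 rows, those of P17 11 and those of P21 19. The rows were chosen on these same rods, of which P21 gave 89 of 150, so the choice favours a high share there. P17 and P21 were 1 library each, so these values describe libraries and are no test of age.

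Row choice was also checked in libraries that had no part in it. When the 50 rows were chosen without 1 of the rod libraries and scored in that library alone, 39 scored above 0 in P12a, 34 in P12b, 38 in P17 and 45 in P21. Among the 3322 rows at 50 CPM or more in the pooled rods of all libraries, 27.3%, 30.2%, 23.3% and 26.5% scored above 0 in the same libraries. Those 3322 rows were taken with the library left out of the choice included, so only the 50 rows were chosen without it. The low depth of a single rod library is part of these counts: 4, 9, 4 and 1 of the 50 rows had no rod UMI in the library left out.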

How the data were processed

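UMI counts per gene row and cell were used as the authors deposited them, as 1 matrix of whole numbers that are not normalized, with the deposited table of each cell's time point and cell type. Per the study's methods the authors aligned reads of 10x 3′ v3.1 libraries with CellRanger 3.1.0 to the HiC_Itri_2 assembly, joined libraries with CellRanger aggr, and named cell types cluster by cluster in Seurat 4.0.4; the submitters' processing notes list a mouse build, with no role given. How cells were filtered and whether doublets were removed is not given in the sources used here. No doublet caller was run. The list of gene names held 30265 entries for 34181 rows and was not used. That cell table and matrix share an order was checked by assigning 3000 held-out cells to the nearest mean profile: 90.2% fell to their own type, against 13.6% after shuffling.

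Cell names end in a library suffix. P1 had 2 suffixes for 1 sample and was not used (6920 cells). The suffixes do not show the labels' replicate numbers. For the tests and the levels by library, counts were summed per library and type with at least 10 cells. Early and late neurogenic progenitors were pooled. These sums went into edgeR 4.0.16 (R 4.3.3, filterByExpr, TMM, glmQLFit, glmQLFTest), with the library as a block between types. Adjusted p-values are Benjamini-Hochberg over all rows tested, and SE is the log2 difference divided by the square root of F. CPM are UMIs scaled to a sum of 1000000. The study tested single cells in Seurat; sums were used here because cells are not replicates. DESeq2 1.42.0, other filters and scalings, thinned sums, sums without the 4585 cells above 2 times the median UMI count of their library and type, and leaving out each library were alternatives. Counts were simulated from 1 mean per row over all libraries and its fitted dispersion, with 4-fold changes in some rows. Of the changed rows, edgeR called 83.9% in rods (1087 rows), 56.6% in cones (12110 rows) and 34.6% in bipolar cells (13032 rows). It also called 3, 22 and 6 unchanged rows there. A steady difference between the ages within a group was not simulated, so these shares need not hold for the real contrasts.

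The members and tests were chosen with earlier results of these data known. Rows named are the 10 with the highest score, the 3 highest in cones and in precursors, up to 2 called rows in each direction with the largest log2 differences in each comparison, and the rows at the limit of the list; others named had their values seen first. Intervals and limits of a count of 0 (3 UMIs, or 3 cells) cover counting error only.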

Additional observations from a re-analysis of the deposited data

Results flagged for a closer look

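The summed level of the 50 rows was tested for an outlying library in 15 groups of 4 to 7 libraries, each a cell type before or after birth, by the gap between the extreme library and its neighbour as a share of the whole range. In 3 groups P21 stood apart: rods (68145 CPM, the other 3 libraries at 14565 to 21193), cones (3514 CPM, the other 4 at 1700 to 2205) and bipolar cells (1441 CPM, the other 5 at 728 to 961). Chance marks about 1 group in 20, the groups span several ages, and P21 was both the oldest library and the one with most rods. In rods the rows were chosen on these same values, with P21 giving 89 of the 150 rods, so the choice itself favours a high level there.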

How the results depend on the processing

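Chosen again were 40 to 47 of the 50 rows with another pseudocount, minimum, weighting or set of cells, and 34 to 47 when 1 rod library was left out. For rods, P17 and P21 against P12, DESeq2 called 2 members, no filter 14, leaving out cells of high UMI count 0, thinned sums 2, and leaving out a library 0 to 18. For cones of P17 and P21, DESeq2 called 8, no filter 14, thinned sums 1, age as a continuous covariate 12, and leaving out a library 0 to 24. In precursors after against before birth, no filter gave 21, thinned sums 1 and leaving out a library 7 to 10 in place of 8. In neurogenic progenitors these were 12, 0 and 3 to 4 in place of 3. DESeq2 gave 1 and no filter 4 both in amacrine and in bipolar cells, and 0 were called whichever library was left out. For cones against precursors, DESeq2 gave 2, thinned sums 1, no library block 0, and leaving out a library 5 to 10 in place of 7. For precursors against progenitors, no filter gave 15, thinned sums 0, no library block 2, and leaving out a library 3 to 6 (3 without P8a) in place of 6. Precursors against amacrine cells gave 0 with thinned sums and 8 to 13 without a library in place of 11, and cones against amacrine cells 17 to 29 in place of 22. Thinned sums are as small as the smallest sum, so fewer rows pass the filter. The cause of the other differences was not tested. The share of all rows called in each setting is not given in this paragraph. The counts therefore show only how the number of members called moved, and not whether it exceeded that share. Of the log2 differences of rows named for a call in a main fit, none changed sign, 24 values lost the call and 212 kept it. Settings in which the filter dropped the row, and age as a continuous covariate, are not in these counts. With age in rods only row 30417 entered. From the age contrasts of cones, amacrine cells and bipolar cells no row entered.

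At least 20 cells could not be applied to rods, since the P12 libraries held 16 and 14. Between ages, no paired analysis was possible, since the labels link no library of any age to a library of another. Between types, the library block paired the 2 types of each library. Leaving out any library in rods, P17 or P21 in cones and either P8 library in bipolar cells left 1 library on that side, assumed to vary like the other side. With 150 rods, 25 of the 50 rows could not be tested with age in rods, and levels under about 10 CPM rest on a few UMIs.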
